A study of Mus musculus with 49 samples.

Results

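Unsorted haploid mouse embryonic stem (ES) cells were set against unsorted diploid ES cells, both kept in 2i. The haploid cells are those the authors' haploid table places in the condition 2i_all, and the diploid cells are those their 2i table places in the condition NoSort. Of 5871 cells listed in the series, 4098 passed the authors' quality control, and 815 of these belong to the comparison, 395 haploid and 420 diploid. The haploid line is H129-1. The diploid line is an F1 hybrid of the strains 129/SV-Jae and castaneus. The series measured chromosome contacts by Hi-C in single cells of these lines, and its title asks how chromosome folding moves through the cell cycle. The labels give the medium and the sort as alternatives for the study and not for each sample, so both come from the condition names in the tables. Each ploidy is represented by 1 line, so ploidy, strain, the table in which cells were scored, and the libraries cannot be told apart in any difference given here.

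Hi-C joins the ends of DNA segments that lay close together in a fixed nucleus, so that each joined pair is read as a contact. In a cell that has just divided, chromosomes are still packed and hold many contacts at the distances typical of mitotic loops. As the cell passes through G1 and copies its DNA, short-range contacts gain a larger share, and before division the mitotic pattern returns. ES cells have a short G1, and most cells of an unsorted culture are in S phase or G2. The medium 2i holds inhibitors of MEK and GSK3 in place of serum, which keeps ES cells in a ground state. Haploid ES cells carry a single set of chromosomes, and their cultures are known to gain diploid cells over time. The labels do not say how many cells of the haploid libraries were still haploid, and this was not tested.

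The haploid cells came from 8 libraries and the diploid cells from 5. The haploid libraries 4 and 5 held only 6 and 4 passing cells, which leaves 6 haploid libraries with at least 10, and of the 11 cells listed for the library haploid 9 none passed (0 of 11). A haploid cell had a median of 54916 contacts and a diploid cell 121876. Median contacts per library ran from 25556 to 88902 in the haploid line and from 71729 to 184750 in the diploid line, and the contacts of a library summed to between 332107 and 6681261 in haploid and between 1452452 and 21244885 in diploid libraries. The haploid libraries with at least 10 passing cells fell into 2 sets by quality measures, a split made after seeing the data. In haploid 1, 2 and 3, between 86.8% and 91.7% of listed cells passed and the share without digestion averaged 26.8% to 27.3%. In haploid 6, 7 and 8, between 47.4% and 55.4% of listed cells passed and that share averaged 35.4% to 39.3%. The main differences from the diploid libraries are therefore also given for each set. No sequencing lane of the 19 in the cell list held more than 1 library. Of 229 index pairs, 221 were used in more than 1 library, no lane and index pair named more than 1 cell, and no cell name was shared by both tables. A library is the unit of every test. The labels do not say whether libraries were separate cultures, so the p-values speak for the spread among these libraries alone.

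Of their passing cells, haploid libraries held a smaller share that the authors called early-S and a larger share called late-S/G2. The border between these groups was placed differently in each table, as given below. With 1 border for both tables, chosen after seeing the data, the difference in late cells was 6.33 points and did not pass (exact permutation p = 0.126). Early-S cells were 28.3%, 26.3%, 31.2%, 33.3%, 32.7% and 30.8% of the passing cells of haploid 1, 2, 3, 6, 7 and 8. They were 43.8%, 36.1%, 43.3%, 39.0% and 44.9% of those of diploid 27, 28_29, 30_31, 32_33 and 34_35. Every haploid library lay below every diploid one. The mean was 30.4% ± 2.67 (SD, n = 6) against 41.4% ± 3.72 (n = 5), a difference of -11.0 points (two-sided exact permutation test of library labels, p = 0.00433, the smallest that 6 against 5 libraries allow, and 0.0216 after Benjamini-Hochberg adjustment over the 5 groups). Late-S/G2 cells made up 55.2% ± 6.70 of haploid and 40.7% ± 7.0 of diploid libraries, 14.5 points more (exact adjusted p = 0.0325), and here the libraries overlapped: haploid libraries held 47.4% to 64.7% and diploid ones 31.2% to 50.0%. That late-S/G2 call was lost, with adjusted p up to 0.0714, when haploid 1, 3, 6 or 8 or diploid 30_31, 32_33 or 34_35 was left out. With a minimum of 20 passing cells per library, 5 against 4 libraries, the adjusted exact p was 0.0529 for both groups. Both haploid sets kept the direction, with early-S differences of -12.8 points for haploid 1 to 3 and -9.13 points for haploid 6 to 8, and late-S/G2 differences of 11.5 and 17.5 points.

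The groups on each side of mitosis were thinly filled. A single haploid cell of 395 was called post-M (0.253%, exact Clopper-Pearson 95% interval 0.00641% to 1.40%), against 11 of 420 diploid cells (2.62%, 1.31% to 4.64%). The library means, 0.362% against 2.25%, did not differ past the threshold (exact adjusted p = 0.0938). Without diploid 27, the adjusted p was 0.0476. Pre-M cells numbered 11 haploid (2.78%, 1.40% to 4.93%) and 3 diploid (0.714%, 0.148% to 2.07%), and their library shares gave an exact adjusted p of 0.338. In haploid 1 to 3 the pre-M share averaged 6.38%, and in haploid 6 to 8 it averaged 0.696%, which lies on the other side of the diploid mean of 1.64%. G1 cells were 10.5% ± 7.09 of haploid and 14% ± 3.37 of diploid libraries (exact adjusted p = 0.338). The intervals cover counting error only.

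**Figure D1:**
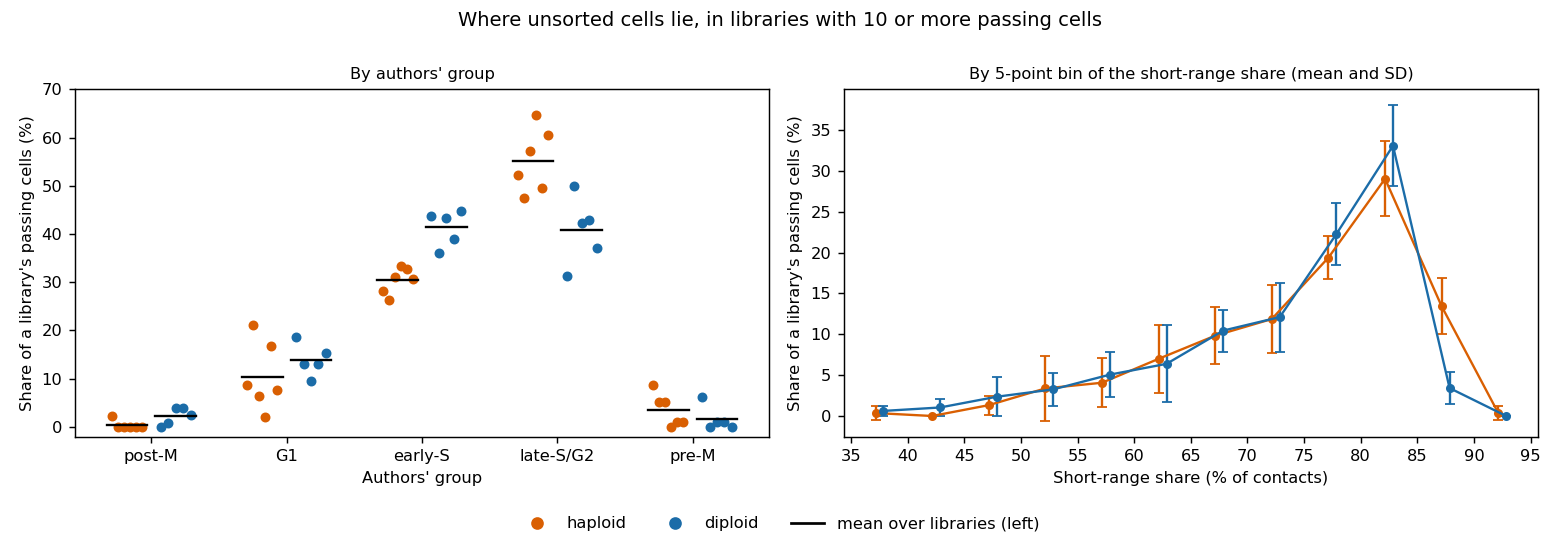
Left, the share of each library's passing cells (%) in each of the authors' groups, 1 point per library with at least 10 passing cells and a black line at the mean; right, the share in each bin of 5 points of the short-range share, mean and SD over the same libraries. In early-S the 6 haploid points lie between 26.3% and 33.3% and the 5 diploid points between 36.1% and 44.9%; on the right the lines part mainly in the bin from 85% to 90%, at 13.4% and 3.41%.

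The authors' grouping was made for each table, so cells were also placed by a measure that both tables share. The short-range share is the percentage of a cell's contacts in a near band of distances, whose limits the files do not give. Among the bins below 85%, the difference furthest from 0 in the mean share of cells was -4.04 points, in the bin from 80% to 85%. Cells with 85% to 90% short-range contacts were 8.70%, 10.5%, 14.3%, 17.6%, 12.9% and 16.5% of haploid 1, 2, 3, 6, 7 and 8. In the diploid libraries they were 4.1%, 3.85%, 4.00% and 5.13% of 28_29, 30_31, 32_33 and 34_35, and 0 of 16 cells of diploid 27, which allows a share of up to 18.8%. The libraries did not overlap, at 13.4% ± 3.44 (n = 6) against 3.41% ± 1.97 (n = 5). The exact permutation p was 0.00433, and its adjusted value over the 12 bins was 0.0519, so that 0 of 12 bins passed and 1 had an unadjusted p under 0.05. The difference was 7.75 points with haploid 1 to 3 alone and 12.3 points with haploid 6 to 8 alone. Pooled, 57 of 395 haploid cells (14.4%, exact 95% interval 11.1% to 18.3%) and 17 of 420 diploid cells (4.05%, 2.38% to 6.40%) lay in it.

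The border between early-S and late-S/G2 was placed differently in each table. Of 77 haploid cells with 75% to 80% short-range contacts, 71.4% were called late-S/G2 and 24.7% early-S. Of 90 diploid cells in the same bin, 27.8% were called late-S/G2. Among libraries with at least 10 cells in that bin, the late-S/G2 share was 68.8% to 80% in haploid 3, 6, 7 and 8 and 11.8% to 34.8% in diploid 28_29, 30_31, 32_33 and 34_35. Late-S/G2 cells spanned 75% to 90.4% short-range contacts in the haploid table and 77.0% to 88.3% in the diploid table. With 1 border for both tables, chosen after seeing the data, cells at or above 80% short-range contacts were 42.8% ± 6.26 of haploid libraries (n = 6, 33.7% to 49.02%) and 36.5% ± 5.55 of diploid ones (n = 5, 31.2% to 45.9%). The libraries overlapped, and the difference of 6.33 points did not pass (exact permutation p = 0.126, 1 test). The border between G1 and early-S differed too: of cells with 60% to 65% short-range contacts, 20.8% of 24 haploid and 65.2% of 23 diploid cells were called G1.

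Within a group, features of contact geometry were compared over libraries with at least 10 cells of the group, 5 haploid (1, 3, 6, 7 and 8) against 4 diploid (28_29, 30_31, 32_33 and 34_35). A matched comparison took library means in bins of 5 points of the short-range share from 65% to 85% and averaged the differences over the 4 bins. Its 6 haploid and 5 diploid libraries were all present only in the bin from 80% to 85%. The bins before it held 4 against 4, 4 against 4 and 5 against 4 libraries. Together with depth and quality measures these comparisons made 20 tests, adjusted as a family. Of the 11 on contact geometry, 5 passed an adjusted p of 0.05, with 2 higher and 3 lower in haploid cells. The early-S short-range share is 1 of these 5 and follows the borders of the groups. Without the short-range share 4 of 9 passed, 2 in each direction. With 5 against 4 libraries the exact p cannot go below 0.0159. G1 could not be tested at this minimum, since only haploid 7 of the haploid libraries held at least 10 G1 cells. Leaving out haploid 3, 6, 7 or 8, or diploid 28_29, 30_31, 32_33 or 34_35, left 0 of the 20 tests past the threshold. Of the 20, 11 to 13 then had an unadjusted exact permutation p under 0.05. Within groups the smallest possible p rises to 0.0286 without one of these haploid libraries and to 0.0357 without one of these diploid libraries. Without haploid 1 it is 0.0286 too, and 13 of the 20 tests still passed. That case has another floor than the diploid omissions, and why calls were lost was not tested. The 14 differences that pass with all libraries kept their direction in each of these omissions.

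The authors' groups separate largely on the short-range share, so its means within groups follow where each table put the borders and are given as a description. In early-S the library means were 68.5%, 70.6%, 69.9%, 71.6% and 69.5% in haploid 1, 3, 6, 7 and 8. They were 71.8%, 72.3%, 73.9% and 73.4% in the diploid libraries. No haploid library reached a diploid one, and the mean was 70.01% ± 1.17 (n = 5) against 72.8% ± 0.969 (n = 4), or -2.82 points. It was -3.32 points with haploid 1 and 3 alone and -2.49 points with haploid 6 to 8 alone. In late-S/G2 the means were 82.6% ± 0.250 and 82.4% ± 0.167 (difference 0.217 points). The share rose from early-S to late-S/G2 by 12.6 ± 1.3 points in haploid and by 9.55 ± 0.95 points in diploid libraries. The ranges did not overlap, at 10.7 to 14.1 and 8.39 to 10.6. The difference in this rise did not pass (exact permutation p = 0.0159, and 0.111 adjusted over the 7 changes).

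The mitotic-band share is the percentage of contacts at the larger distances that the authors name after mitosis. In late-S/G2 it was 7.89%, 7.90%, 7.92%, 8.08% and 7.86% in haploid 1, 3, 6, 7 and 8. It was 8.27%, 8.17%, 8.38% and 8.33% in diploid 28_29, 30_31, 32_33 and 34_35. All haploid values lay below all diploid ones, with 7.93% ± 0.0845 (n = 5) against 8.29% ± 0.0914 (n = 4), or -0.355 points (exact adjusted p = 0.0315). The difference was -0.388 points with haploid 1 and 3 alone and -0.334 points with haploid 6 to 8 alone, and -0.399 points with medians over cells (exact adjusted p = 0.0977). In early-S no difference passed the test, at 11.8% ± 0.378 and 11.9% ± 0.310 (difference -0.0426 points, exact adjusted p = 0.810).

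At an equal short-range share the mitotic band was lower in haploid cells, with a difference of -0.591 points over the 4 bins (exact adjusted p = 0.0488). The largest of the 4 differences lay at the low end, at -1.41 points. In the bin from 65% to 70% the haploid libraries averaged 12.5% ± 0.374 (n = 4, 12% to 12.7%) and the diploid ones 13.9% ± 0.123 (n = 4, 13.7% to 14%). The differences in the next bins were -0.688, -0.0960 and -0.174 points. From 65% to 70% all cells of both lines were called early-S, the group whose difference did not pass. From 80% to 85%, 97.4% of haploid and 97.9% of diploid cells were called late-S/G2. There the libraries overlapped, at 7.68% to 9.32% in haploid and 8.05% to 9.09% in diploid ones. Over the 4 bins haploid 6 to 8 alone gave -0.789 points. Haploid 1 to 3 had 3 libraries with cells enough in the bin from 80% to 85% only, and gave 0.00804 points there. The call was lost, with exact adjusted p up to 0.102, without haploid 3, 6, 7 or 8 or without any 1 of the 5 diploid libraries. It was also lost with bins weighted by their libraries (exact adjusted p = 0.0599) and with bins of 10 points (-0.116 points, exact adjusted p = 0.883).

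**Figure D2:**
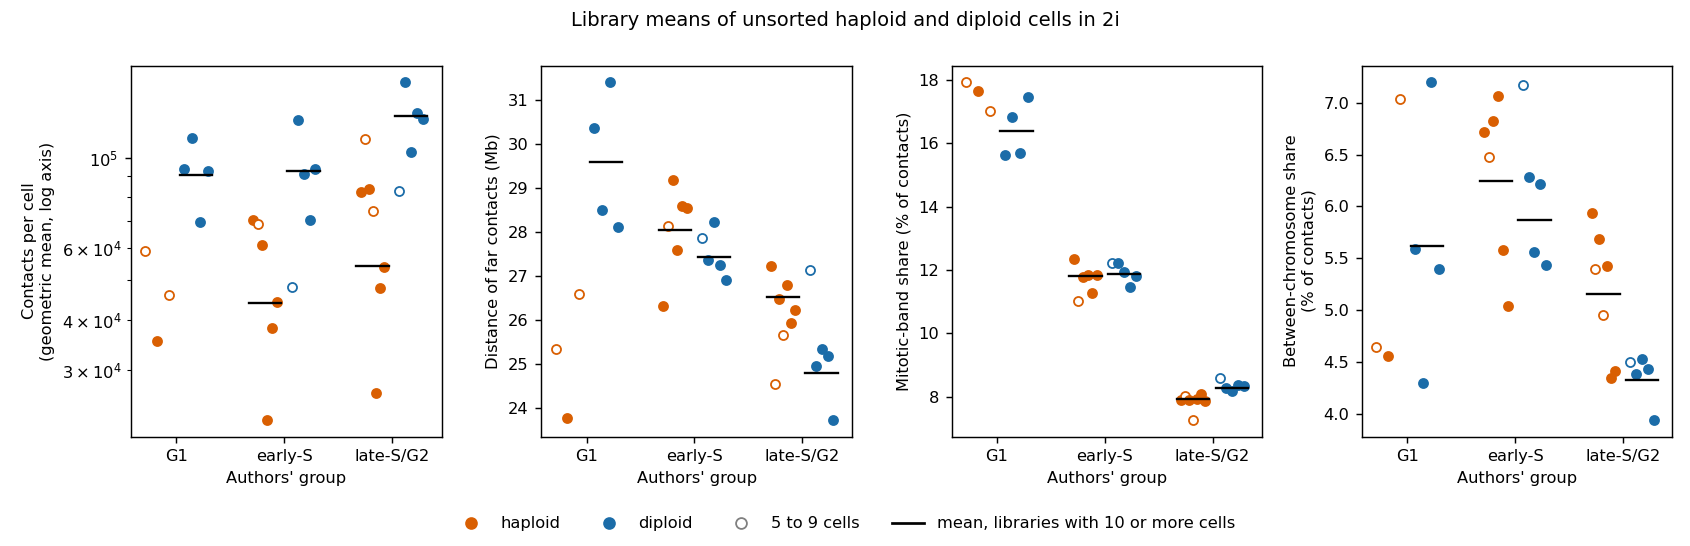
Library means of contacts per cell (geometric mean, log axis), distance of far contacts (Mb), mitotic-band share and between-chromosome share (both % of contacts) in G1, early-S and late-S/G2. Filled points are libraries with at least 10 cells of the group, open points those with 5 to 9, and black lines mark means over filled points. In late-S/G2 the filled haploid points lie above the diploid ones in far distance, at 25.9 to 27.2 against 23.7 to 25.4 Mb, and below them in the mitotic band, at 7.86% to 8.08% against 8.17% to 8.38%.

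Far contacts within a chromosome reached further in haploid late-S/G2 cells. Their mean distance was 27.2, 26.5, 26.8, 25.9 and 26.2 Mb in haploid 1, 3, 6, 7 and 8. It was 25, 25.4, 25.2 and 23.7 Mb in diploid 28_29, 30_31, 32_33 and 34_35. The haploid libraries all lay above the diploid ones, with 26.5 ± 0.503 Mb (n = 5) against 24.8 ± 0.731 Mb (n = 4), a difference of 1.72 Mb (exact permutation test, adjusted p = 0.0315). It was 2.05 Mb with haploid 1 and 3 alone and 1.51 Mb with haploid 6 to 8 alone. With medians over cells in place of means it was 1.68 Mb (exact adjusted p = 0.0529). The 9 late-S/G2 cells of haploid 2 averaged 24.6 Mb, among the diploid libraries, and the 5 of haploid 4 averaged 25.7 Mb, above the 4 tested diploid libraries. The 5 cells of diploid 27 averaged 27.15 Mb, above 4 of the 5 haploid libraries tested, and the 4 cells of haploid 5 averaged 27.02 Mb. With a minimum of 5 cells, the difference was 0.851 Mb (exact adjusted p = 0.236).

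Late-S/G2 cells of the haploid libraries also held fewer contacts, and the part of depth in the far distance was not tested. The log2 contact difference was -0.60 with haploid 1 and 3 alone and -1.63 with haploid 6 to 8 alone. The far-distance differences of these sets were 2.05 and 1.51 Mb. Within libraries, the median Spearman rho between log2 contacts and far distance was -0.228 over 5 haploid libraries (-0.411 to 0.0031, 4 negative). It was -0.195 over 4 diploid ones (-0.278 to 0.171, 3 negative), as a description over cells that share a library. Restricted to cells with 33481 to 108059 contacts, a range both lines fill (267 haploid and 148 diploid cells), the difference was 1.43 Mb in 4 against 3 libraries, where the exact p cannot fall below 0.0571 (adjusted p = 0.127). The mitotic-band difference in late-S/G2 was -0.426 points there (exact adjusted p = 0.127).

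In early-S the far distance was 28.1 ± 1.11 Mb in haploid and 27.4 ± 0.564 Mb in diploid libraries (difference 0.610 Mb, exact adjusted p = 0.411). Matched on the short-range share from 65% to 85%, haploid far contacts were 0.816 Mb longer (exact adjusted p = 0.0495), with 0.969, 0.689, 0.735 and 0.872 Mb in the 4 bins. The libraries overlapped in each of these bins. From 80% to 85% they lay at 22.3 to 27.3 Mb in haploid and at 23.8 to 25.7 Mb in diploid libraries. With haploid 1 to 3 alone the matched difference was 0.321 Mb, from the bin from 80% to 85% only, and with haploid 6 to 8 alone it was 0.966 Mb. Below 65% the haploid means were the lower ones. From 55% to 60% haploid 7 and 8 had 24.04 and 28.8 Mb, and diploid 30_31 and 34_35 had 29.6 and 29.2 Mb. From 60% to 65% haploid 1, 7 and 8 had 27.02, 31.3 and 27.4 Mb, and diploid 28_29 and 32_33 had 30.7 and 30.1 Mb. Both haploid libraries lay below both diploid ones in the first of these bins, and in the second haploid 7 lay above both diploid libraries. Those bins held too few libraries to enter the matched test. With bins of 10 points the matched difference was -0.972 Mb (exact adjusted p = 0.266), and with bins weighted by their libraries it was 0.819 Mb (exact adjusted p = 0.0680). The call was also lost, with exact adjusted p up to 0.102, without haploid 1, 3, 6, 7 or 8 or without any 1 diploid library.

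**Figure D3:**
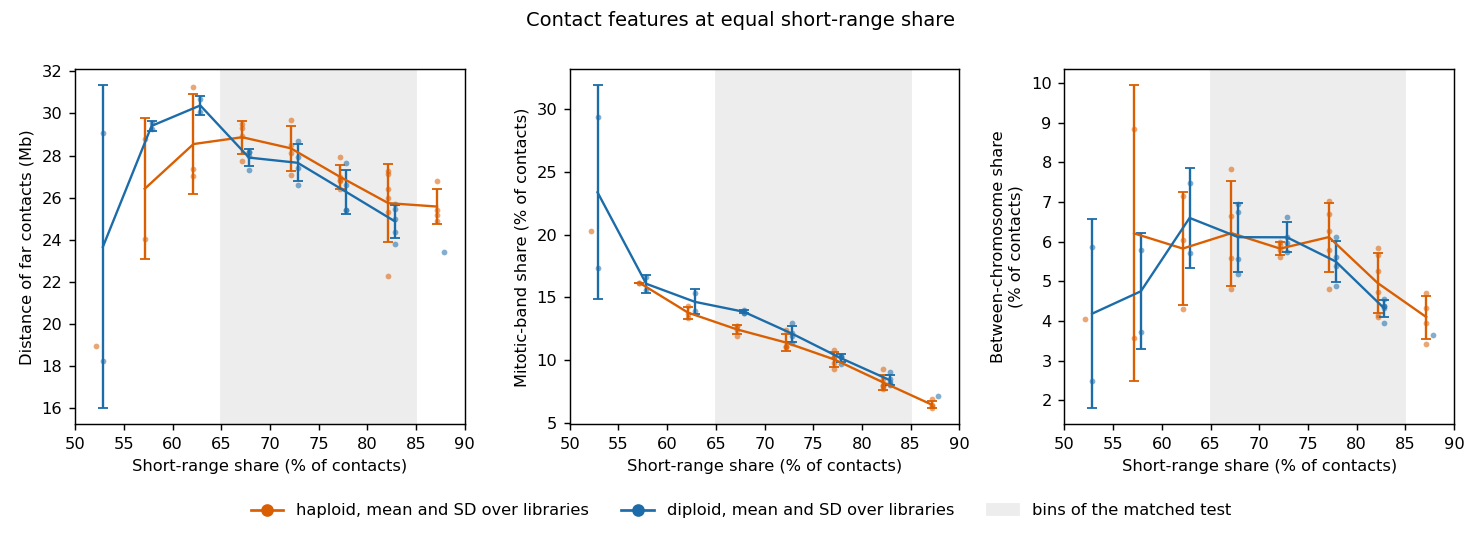
Far distance (Mb), mitotic-band share and between-chromosome share (both % of contacts) against the short-range share in bins of 5 points. Points are libraries with at least 5 cells in the bin, lines and bars are the mean and SD over libraries where there are at least 2, and the grey area marks the 4 bins of the matched test. The far-distance means are 28.5 in haploid against 30.4 Mb in diploid libraries in the bin before 65%, where the points overlap, and 28.9 against 27.9 Mb in the bin after it.

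The haploid mean was also lower in the authors' G1 group, whose border differed between the tables as given above. In G1 the far distance was 23.8 Mb in the 17 cells of haploid 7, and 30.4, 28.5, 31.4 and 28.1 Mb in diploid 28_29, 30_31, 32_33 and 34_35. Haploid 3, with 5 G1 cells, had 25.4 Mb, and haploid 8, with 7, had 26.6 Mb. All 3 lay below every diploid library, at 25.3 ± 1.41 (n = 3) against 29.6 ± 1.55 Mb (n = 4), with an exact p of 0.0571, the smallest that 3 against 4 libraries allow (adjusted p = 0.0871). From G1 to early-S the distance changed by 3.82, 4.80 and 1.94 Mb in haploid 3, 7 and 8. In the diploid libraries it changed by -2.99, -0.268, -4.15 and -1.22 Mb. The lines thus moved in opposite directions, by 3.52 ± 1.45 and -2.16 ± 1.74 Mb (exact p = 0.0571, the floor, and 0.200 adjusted over the 14 changes).

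A minimum of 1 G1 cell, chosen after seeing the data, lets 6 haploid and 5 diploid libraries enter. The G1 far distance was then 26.1 ± 2.10 against 29.5 ± 1.36 Mb, a difference of -3.45 Mb (exact adjusted p = 0.0360). Haploid 6, with a single G1 cell at 29.9 Mb, fell by 2.30 Mb to early-S, while the other 5 haploid libraries rose and all 5 diploid libraries fell. The difference in change was 3.99 Mb (exact p = 0.0260, adjusted 0.0909). From early-S to late-S/G2 the distance changed by -1.51 ± 1.55 Mb in haploid libraries, with 4 of 5 down, and by -2.63 ± 0.486 Mb in diploid libraries, with 4 of 4 down (exact adjusted p of the difference 0.422).

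The share of contacts between different chromosomes did not differ past the test in any group. In late-S/G2 it was 5.93%, 5.69%, 5.43%, 4.34% and 4.41% in haploid 1, 3, 6, 7 and 8, against 4.38%, 4.53%, 4.43% and 3.94% in the diploid libraries. Haploid 1, 3 and 6 lay above all diploid libraries, and haploid 7 and 8 among them. The means were 5.16% ± 0.740 and 4.32% ± 0.260 (difference 0.839 points, exact adjusted p = 0.190). In early-S the difference was 0.372 points (exact adjusted p = 0.459), and matched on the short-range share it was 0.269 points (exact adjusted p = 0.510). The haploid sets differed more among themselves: the late-S/G2 difference from the diploid mean was 1.49 points with haploid 1 and 3 and 0.405 points with haploid 6 to 8. Within late-S/G2 cells of a library, the between-chromosome share fell as the short-range share rose, with a median Spearman rho of -0.645 over 5 haploid and -0.614 over 4 diploid libraries, as a description over cells.

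The deposited scores have no scale stated to be common to both tables, so they are described for each line and not tested between them. Steps between the authors' groups, for these scores and for the loops below, follow borders that differ between the tables. Of cells with 75% to 80% short-range contacts, 71.4% of haploid cells were called late-S/G2 and 70% of diploid cells early-S. The sizes of such steps therefore cannot be read as a difference between the lines. The replication score, which by its name follows the copying of DNA, rose from early-S to late-S/G2 in 5 of 5 haploid libraries, by 0.0974 ± 0.0425, and in 3 of 4 diploid libraries, by 0.0198 ± 0.0274. Along the short-range share it was highest in the bin from 80% to 85% in haploid libraries, at 1.257 ± 0.0436 (n = 6). The haploid mean from 75% to 80%, 1.247 ± 0.0112 (n = 5), lay within that spread. In diploid libraries it was highest in the bin from 75% to 80% (1.25 ± 0.0102, n = 4). In the diploid line it had come down to 1.20 ± 0.0403 (n = 5) in the bin from 80% to 85%. Among late-S/G2 cells of a library it fell with the short-range share, with a median Spearman rho of -0.208 over 5 haploid and -0.510 over 4 diploid libraries, all negative.

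The insulation score reflects how strongly the borders of topological domains, stretches of chromosome that contact themselves, separate neighbours. It fell from early-S to late-S/G2 in every library, with a change of -0.260 ± 0.0154 in 5 haploid and -0.194 ± 0.0449 in 4 diploid libraries. The score was highest from 70% to 75% short-range contacts in haploid libraries (2.46 ± 0.0739, n = 4). The haploid mean from 65% to 70%, 2.44 ± 0.0451 (n = 4), lay within that spread. In diploid libraries with 3 or more per bin it was highest from 65% to 70% (2.51 ± 0.0596, n = 4). From G1 to early-S it fell in 4 of 4 diploid libraries (-0.0851 ± 0.0445) and rose by 0.0860 in haploid 7, the only haploid library with at least 10 G1 cells. With fewer G1 cells, it rose by 0.0771 in haploid 1 (4 cells) and 0.0745 in haploid 8 (7 cells). It changed by -0.00346, -0.0201 and -0.00885 in haploid 2, 3 and 6 (4, 5 and 1 cells) and by -0.146 in diploid 27 (3 cells).

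Compartments are the active and inactive parts of chromosomes, which contact their own kind. Their score in cis, within chromosomes, rose from early-S to late-S/G2 in 5 of 5 haploid (0.0451 ± 0.0256) and 4 of 4 diploid libraries (0.0371 ± 0.0225). In trans, between chromosomes, it rose by 0.0502 ± 0.0212 in 5 of 5 haploid and by 0.0161 ± 0.0120 in 4 of 4 diploid libraries. In late-S/G2 the trans score was 0.259 ± 0.0219 in haploid and 0.320 ± 0.00695 in diploid libraries. The alignment score, which the tables name for trans contacts, was 0.276 ± 0.0367 against 0.262 ± 0.0122 in early-S and 0.278 ± 0.0175 against 0.303 ± 0.0223 in late-S/G2. The largest deviation in chromosome coverage per cell averaged 0.388 ± 0.103 in haploid and 0.331 ± 0.0241 in diploid late-S/G2 cells, with haploid libraries from 0.307 to 0.551.

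**Figure D4:**
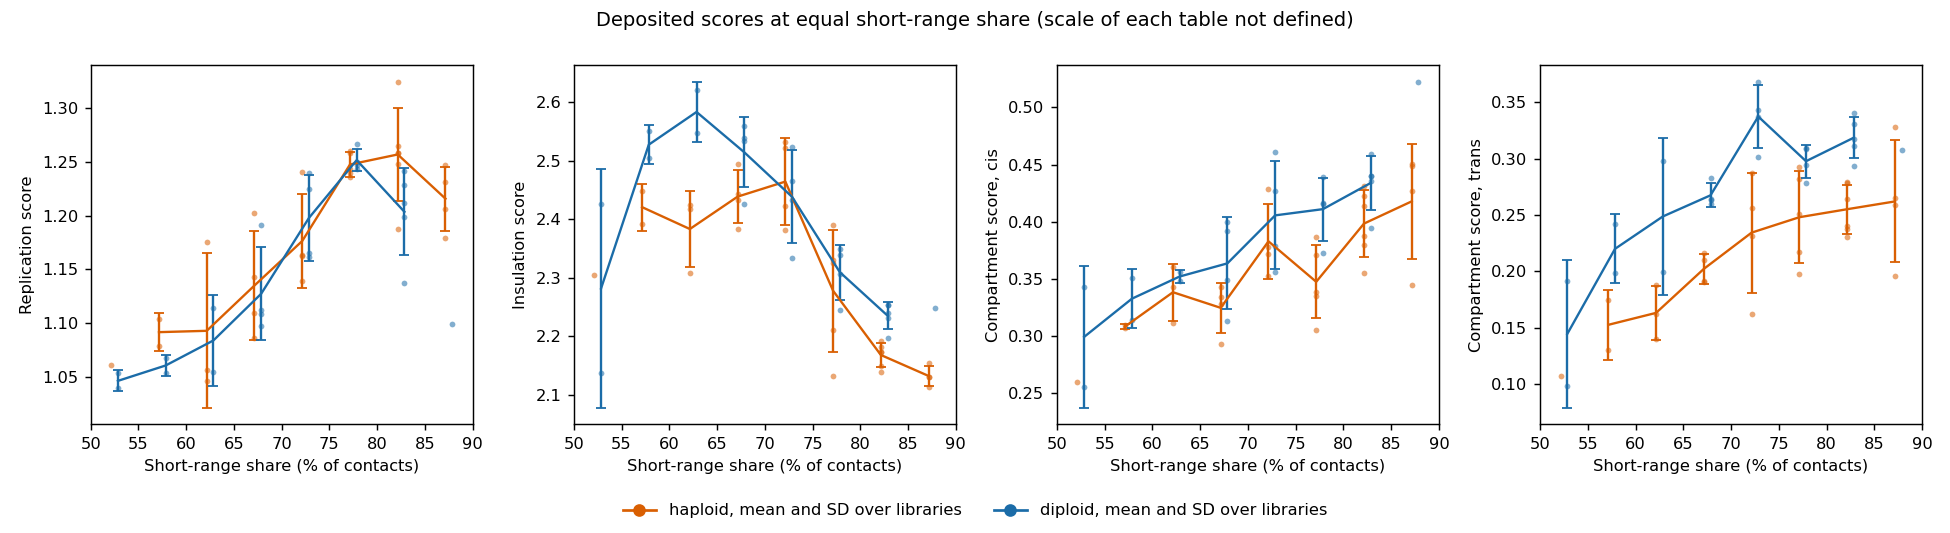
Deposited scores against the short-range share in bins of 5 points, for replication, insulation, and compartments in cis and in trans. Points are libraries with at least 5 cells in the bin, and lines and bars are the mean and SD over libraries where there are at least 2. The scale of each table is not defined, so the shape of a line and not its height can be read against the other. The haploid replication score is highest in the bin from 80% to 85%, at 1.257, little above the 1.247 of the bin before it. The diploid one is highest in the bin from 75% to 80%.

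Loops were given as log2 enrichments for early-replicating anchors on both sides (EE) and late-replicating anchors on both sides (LL), read so from the column names. In early-S the library means were 1.08 ± 0.12 for EE and 1.37 ± 0.27 for LL in haploid (n = 5), and 0.77 ± 0.09 and 1.11 ± 0.04 in diploid libraries (n = 4). In late-S/G2 LL was 1.23 ± 0.26 and 0.81 ± 0.10, and it had come down from early-S in 4 of 5 haploid and 4 of 4 diploid libraries. These values rest on few contacts per cell. With the log2 undone, 92.9% of EE and 100% of LL values in haploid cells could be written as 9 times a ratio of whole numbers. The denominator was at most 60, and the numerator had to lie within 0.0001 of a whole number. In diploid cells 55.5% of EE and 85.7% of LL values met this. The difference between lines was not tested.

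Depth and quality differed in every group tested, with all 9 tests lower in haploid cells. The geometric mean of contacts per early-S cell was 70214, 61130, 22685, 38153 and 44169 in haploid 1, 3, 6, 7 and 8, against 123704, 91080, 70141 and 93648 in the diploid libraries. Haploid 1 lay just above diploid 32_33, and the other haploid libraries lay below all diploid ones. On the log2 scale the difference was -1.08 (exact adjusted p = 0.0488), a 2.11-fold higher count in diploid cells. In late-S/G2 it was -1.22 (exact adjusted p = 0.0315), or 2.33-fold, with no overlap. The haploid sets differed here as well, at -0.60 with haploid 1 and 3 and -1.63 with haploid 6 to 8 in late-S/G2. Ploidy, line and library cannot be told apart in the contact number.

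The share without digestion, which by its name counts joins at sites the enzyme had not cut, was 33.2% ± 5.95 (n = 5) in haploid and 48.8% ± 1.38 (n = 4) in diploid late-S/G2 cells (exact adjusted p = 0.0315). Duplicated fragment ends, where the same end is seen in more than 1 contact, averaged 1.32% ± 0.597 and 5.92% ± 1.41 (exact adjusted p = 0.0315). Matched on the short-range share, these differences were -14.8 and -4.39 points (both exact adjusted p = 0.0315). In late-S/G2 the difference in the share without digestion was -21.9 points with haploid 1 and 3 alone and -11.4 points with haploid 6 to 8 alone. Among cells with 33481 to 108059 contacts, the late-S/G2 differences in the share without digestion and in duplicated ends were -18.4 and -4.76 points. These came from 4 against 3 libraries (both exact permutation p = 0.0571, the smallest possible, and 0.127 adjusted). Matched on the short-range share in that contact range, the differences were -18.0 and -4.13 points (both exact adjusted p = 0.127). Line and library cannot be told apart in these measures. The part of digestion in the differences of contact geometry was not tested between the lines, and within late-S/G2 cells of a library its median Spearman rho with far distance was 0.244 over 5 haploid and 0.129 over 4 diploid libraries.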

How the data were processed

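Per the submitters' processing notes, reads were aligned with Bowtie2 to mm9; further steps are not given in the sources used here. Contacts per cell are a deposited count, and the deposited shares are each a fraction of a cell, shown in percent, with denominators and band limits not stated. The authors' replication, insulation, compartment, alignment and coverage values are each a score with no stated scale. Loop enrichments, deposited with no unit, were taken as log2 because of their limits. Far distance is deposited in bp and shown in Mb. Groups, conditions, libraries and the quality flag are the authors'. The serum table served only to count cells.

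The deposited cell list links batch numbers to samples. For diploid 27, absent from that list, the number in the title gave the link. Cells were averaged within a library and group (minimum 10) or bin of 5 points (minimum 5, with at least 3 libraries a side), and library labels were permuted exactly, two-sided, with Benjamini-Hochberg adjustment at 0.05 over 20 feature tests, 5 groups, 12 bins or 7 changes. Contacts were averaged as log2 counts. In the matched test all bins of a library moved together. Scores and loops were not tested between tables. Exact binomial intervals have a level of 95%, and a count of 0 was given a limit of 3 cells over the total.

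The members and lists were chosen with earlier results of these data known. No gene is named, as no file used here has values per gene: every feature on a common scale is reported, and single bins are named only for features that pass the matched comparison or as a course. Cell type markers did not apply. Alternatives were minimums of 5, 20 and 1 cells, medians, depth restrictions, bins of 2.5 and 10 points, weighted bins, bins without post-M and pre-M cells, log2 ratios, pooled cells and leave-one-out, and each haploid set alone. The minimum of 1 cell, the haploid sets and 1 border at 80% short-range contacts for both tables were added after seeing the data. The software was scipy 1.17.1, numpy 2.4.6 and pandas 2.3.3 under Python 3.11.15, with plots by matplotlib 3.10.9. On simulated data with 30 of 60 features changed by 5 library SDs, the early-S, late-S/G2 and matched tests called 100%, 96.7% and 100% of them, and 3.33%, 0% and 3.33% of the others. The simulated features were drawn independently with a change of a set size, while the 20 feature tests share cells. These rates therefore do not give the power of the tests reported above.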

Additional observations from a re-analysis of the deposited data

Results flagged for a closer look

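The far distance changed in opposite directions from G1 to early-S in every library with at least 5 cells in both groups, by 3.52 Mb on average in haploid 3, 7 and 8 and by -2.16 Mb in diploid 28_29, 30_31, 32_33 and 34_35. The exact permutation p of the difference was 0.0571, the smallest possible with 3 against 4 libraries, and 0.200 adjusted. Haploid 6, with 1 G1 cell, moved the way of the diploid libraries.

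In 4 of 85 sets of 4 to 10 library values, 1 library stood apart from the others by Dixon's criterion, which chance gives in about 1 of 20. Haploid 7 had a mitotic-band share of 8.08% in late-S/G2, above the 7.86% to 7.92% of the other haploid libraries and nearest to the diploid ones. Diploid 30_31 had an LL loop enrichment of 1.18 in early-S. Haploid 1 held the only haploid post-M cell, 2.17% of its cells. Diploid 27 held 1 pre-M cell among 16, 6.25% of its cells.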

How the results depend on the processing

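Values are haploid minus diploid, with contacts on the log2 scale, shares in points and distances in Mb. With a minimum of 5 cells, early-S contacts (-0.78), late-S/G2 far distance (0.851), and the matched mitotic band (-0.521) and far distance (0.309) no longer passed, and the bin from 85% to 90% passed (12.8). With a minimum of 20, early-S contacts (-0.98) and short-range share (-2.27), the matched mitotic band (-0.359), and the shares of early-S (-9.56) and late-S/G2 cells (13.7) no longer passed, leaving 9 feature tests and 0 composition tests (3 with an unadjusted exact permutation p under 0.05). With medians, late-S/G2 mitotic band (-0.399) and far distance (1.68) and matched far distance (0.755) no longer passed.

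In the common contact range 0 feature tests passed, 4 of 20 with an unadjusted exact permutation p under 0.05. Contacts, equalised by construction, gave -0.21 in early-S, 0.072 in late-S/G2 and 0.064 matched. Early-S short-range share was -2.74, late-S/G2 mitotic band -0.426 and far distance 1.43, and matched mitotic band -0.253 and far distance 1.14. With the lower-depth diploid and higher-depth haploid cells, 0 feature tests and 0 composition tests passed (11 of 20 and 2 of 5 with an unadjusted exact permutation p under 0.05). Contacts were turned by construction (0.52 in early-S, 0.28 in late-S/G2, 0.59 matched), short-range share was -1.94 in early-S, mitotic band -0.409 and far distance 1.16 in late-S/G2, matched mitotic band -0.258 and far distance 0.818, and the early-S and late-S/G2 cell shares -11.3 and 12.9.

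With bins of 10 points matched contacts (-0.85, exact adjusted p = 0.0529) and mitotic band (-0.116, 0.883) no longer passed, and far distance reversed (-0.972, 0.266). With bins weighted by libraries mitotic band (-0.542, exact adjusted p = 0.0599) and far distance (0.819, 0.0680) no longer passed. With 1 border at 80% short-range contacts for both tables, added after seeing the data, the share of late cells no longer passed (6.33). With a minimum of 1 cell, added after seeing the data, early-S contacts (-0.78), late-S/G2 far distance (0.962) and the matched mitotic band (-0.332) no longer passed, and matched far distance reversed (-1.39, exact adjusted p = 0.0390). The late-S/G2 between-chromosome share (0.889), post-M share (-1.97), bin from 85% to 90% (13.9) and rise of the short-range share (3.14, the 1 change that passed) then passed. With haploid 1 to 3 alone, contacts were -0.50 in early-S, -0.60 in late-S/G2 and -0.46 matched, between-chromosome share 1.49 in late-S/G2 and 1.10 matched, and the matched mitotic band reversed (0.00804).

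Leaving out 1 library in turn gave contacts of -1.25 to -0.84 in early-S, -1.38 to -0.96 in late-S/G2 and -1.26 to -0.81 matched, early-S short-range share -3.22 to -2.44, late-S/G2 mitotic band -0.395 to -0.324 and far distance 1.37 to 1.91, matched mitotic band -0.665 to -0.473 and far distance 0.722 to 0.989, late-S/G2 cell share 12.1 to 16.8 and post-M share -2.45 to -1.45. The feature tests that passed numbered 0 to 14 and the composition tests 1 to 3. Where no cause is given above, it was not tested. No paired analysis was possible because the haploid and diploid libraries compared share no number. The number of libraries and the few G1, post-M and pre-M cells limit the precision, and with 3 against 4 libraries no test could pass.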
